A study of Mus musculus with 6 samples.

Results

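The naive pluripotency transcription factors Nanog, Klf2, Klf4, Klf5, Esrrb, Tbx3, Tfcp2l1, Zfp42, Nr0b1 and Prdm14 were followed in mouse embryonic stem cells kept for 2 days in neural medium, in which a hairpin against Geminin (gene Gmnn) was either induced or left silent. Every probe set annotated to exactly 1 of these 10 symbols was taken, which gave 21 probe sets of 45037 on the array and 10 genes of 18193. All 10 genes had a probe set above the filter on dim signals, as did 15 of the 21 probe sets. The lines derive from the E14TG2a embryonic stem cell line on a 129P2 background and were grown in N2B27, a serum-free medium that permits neural commitment. All cells, controls included, carry a doxycycline-inducible microRNA-type hairpin (shRNAmir) against Gmnn. Experiments E1 and E3 used hairpin number 11, and E2 used hairpin number 9 in a second line. Each experiment gave 1 GemKD array, from cells given 500 ng Dox as the labels write it, and 1 uninduced array from cells without Dox, so there were 3 arrays in each group. No array of Dox without a hairpin was analysed here, so an effect of Dox and an effect of the knockdown cannot be told apart. The target itself read 3557, 3477 and 3463 in the uninduced arrays of E1, E2 and E3 and 983, 1669 and 1270 in GemKD, which is 27.6%, 48% and 36.7% of control. The arrays had like median signals (59.3 to 60.9), but those of E3 stood apart, with an SD of the log2 difference from the other arrays of 0.318 to 0.362 over 7094 bright genes, against 0.125 to 0.148 between the arms of 1 experiment.

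Naive pluripotency is the state of the preimplantation epiblast, kept in culture by LIF acting through STAT3 and by inhibition of GSK3 and ERK. Its transcription factors bind one another's genes and share many targets with Oct4 and Sox2, and they are shut down when cells move through formative and primed epiblast towards neural fate. Klf4 and Tfcp2l1 respond to STAT3, Esrrb is held down by Tcf7l1 until Wnt signalling relieves it, and Prdm14 dampens FGF signalling and DNA methylation.

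Promoter windows were available for 7 of the 10 genes, from 250 bases before to 50 bases after the start site (RefSeq, GRCm38.p6, 9 windows). Those of Nanog, Zfp42 and Tfcp2l1 are shown because they held matches to the elements of Oct4, Sox2 or the Klf factors and because these genes moved together across the experiments described further on. Capitals mark TTTGCAT, the core of the Oct4 octamer, CATTGT, a Sox element, and the Klf elements GGGTGTGG and GGGCGTGG, each searched on both strands.

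Nanog, chr6:122707239-122707538, plus strand: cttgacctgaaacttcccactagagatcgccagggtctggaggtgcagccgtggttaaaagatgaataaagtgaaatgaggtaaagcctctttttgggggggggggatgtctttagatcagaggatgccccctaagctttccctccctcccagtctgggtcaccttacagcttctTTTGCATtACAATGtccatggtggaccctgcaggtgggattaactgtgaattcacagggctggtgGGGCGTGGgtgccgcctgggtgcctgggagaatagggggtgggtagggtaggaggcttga
Zfp42, chr8:43306960-43307259, minus strand: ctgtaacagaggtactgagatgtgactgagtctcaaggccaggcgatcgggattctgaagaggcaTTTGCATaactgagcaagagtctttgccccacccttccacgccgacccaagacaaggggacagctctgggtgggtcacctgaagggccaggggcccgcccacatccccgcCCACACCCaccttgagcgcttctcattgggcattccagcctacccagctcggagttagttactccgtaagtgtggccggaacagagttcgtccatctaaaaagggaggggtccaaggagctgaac
Tfcp2l1, chr1:118627695-118627994, plus strand: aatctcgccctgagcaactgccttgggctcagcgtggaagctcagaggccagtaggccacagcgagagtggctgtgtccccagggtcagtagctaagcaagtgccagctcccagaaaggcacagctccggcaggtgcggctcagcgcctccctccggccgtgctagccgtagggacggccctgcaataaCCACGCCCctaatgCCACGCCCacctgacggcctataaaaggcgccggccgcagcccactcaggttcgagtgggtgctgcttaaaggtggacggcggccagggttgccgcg

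In the Nanog window the octamer core began at base 176 and the Sox element, on the opposite strand, at base 184, with 1 base between them. A second Nanog window starts further downstream and overlaps the first, so it holds the same 3 matches. Zfp42 had the octamer core at base 66 and a Klf element at base 176. Tfcp2l1 had a pair of Klf elements, at bases 190 and 204. Of all 32851 promoter windows 4.63% held the octamer core, 12.6% the Sox element, 3.56% GGGTGTGG and 5.33% GGGCGTGG. Elsewhere, 1 of the Esrrb windows held the Sox element, and those of Klf2, Klf4 and Nr0b1 held none of these letters. Over the 6 arrays, Pearson's r of Klf2, Klf4 and Nr0b1 with the mean of the other factors was 0.987, 0.996 and 0.942. Such values mostly describe the gap of E3. Of 1053 other genes with a range of at least 1 on the log2 scale, 25.5% had an r above 0.95 with the mean profile of the 10 factors. Whether the letters bear on these profiles was not tested. The Esrrb element TCAAGGTCA, the T-box element TCACACC and the STAT element TTCCNGGAA were in 0 of the 9 windows, against 0.423%, 3.98% and 1.15% of all windows. A match is a description of the letters and no evidence of binding.

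The first comparison asks how the factors differed between GemKD and uninduced cells of the same experiment. Nanog, the homeodomain factor at the centre of the group, had the largest mean difference when each gene was read by its brightest probe set. Its signal was 1713 uninduced and 2434 in GemKD in E1, 1565 and 2418 in E2, and 288 and 341 in E3. GemKD was the higher array in every experiment, at 142.1% of control in E1, 154.5% in E2 and 118.4% in E3. The groups overlapped all the same, because both arrays of E3 lay below those of E1 and E2. On the scale used throughout, log2 of the signal plus 16, the ratios were 0.50, 0.62 and 0.23, with a mean of 0.45 ± 0.20 (SD, n = 3).

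Over all 14188 genes tested, limma called 0 of the 10 factors at an adjusted p under 0.05 without regard to experiment (adjusted p = 0.9998 for each), where the background of called genes was 0.00705%. At an unadjusted p under 0.05 there were also 0 of the 10, and 123 genes in all. With the experiment as a block 0 of the 10 passed again, against a background of 0.0352%. At an unadjusted p under 0.05 in the block fit stood 4 of the 10, beside 4.74% of all genes. Those 4 were Nanog (adjusted p = 0.0589, 95% interval of the log2 difference 0.29 to 0.61), Zfp42 (0.226), Klf4 (0.921) and Klf5 (0.996). Nanog passed in the block fit when E1 was left out (log2 0.43, adjusted p = 0.0140) or E3 (0.56, adjusted p = 2.05e-04), and not when E2 was left out (0.37, adjusted p = 0.146). In E1 and E2 alone it was the 1 factor called, where 0.113% of genes were called higher.

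**Figure D1:**
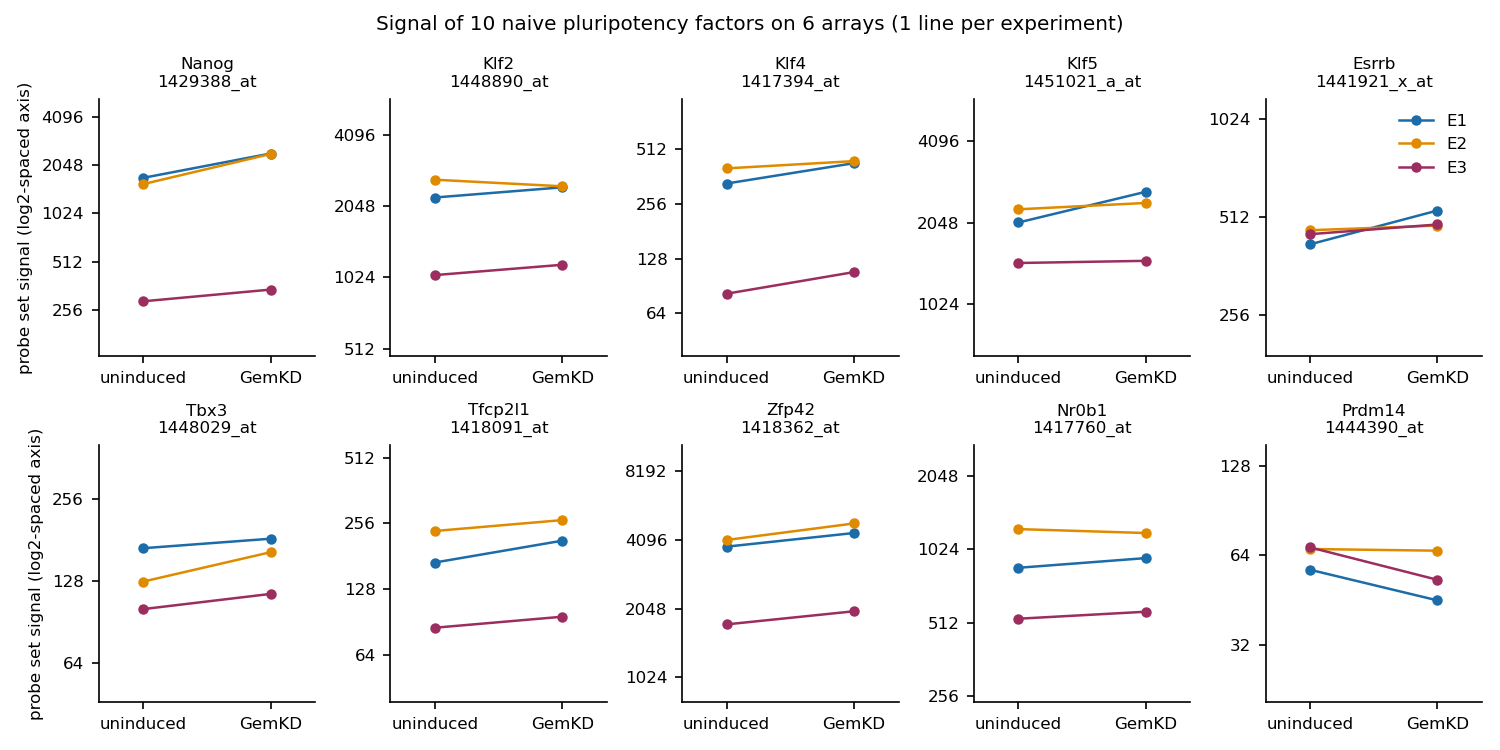
Signal of each factor on the 6 arrays, 1 panel per gene (brightest probe set), on an axis spaced by log2, with a line joining the uninduced and the GemKD array of E1 (blue), E2 (orange) and E3 (purple). The purple line lies below the other 2 in 8 of the 10 panels, all but Esrrb and Prdm14. Slopes are small beside that distance for most of the 8. They are nearer to it for Tbx3 (log2 0.32 in E2, beside an E3 difference from E2 of -0.37). The same holds for Klf5 (0.37 in E1, beside an E3 difference from E1 of -0.66).

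Direction was shared more widely than size. GemKD exceeded uninduced in all 3 experiments for 7 of the 10 factors, where 12.2% of all genes tested did. Prdm14 was below uninduced in all 3, as were 11.7% of all genes. Klf2 and Nr0b1 were mixed. The median log2 ratio of the 10 factors was 0.25, 0.10 and 0.14 in E1, E2 and E3, beside -0.01, -0.02 and 0.03 for all genes tested. No factor reached 1.5-fold in all 3 experiments (0 of 10), a size that 1 gene reached upwards and 5 downwards over the whole array.

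Among the Krüppel-like zinc finger factors, Klf4 had the clearest difference. It read 332 uninduced and 429 in GemKD in E1, 402 and 441 in E2, and 82.1 and 108 in E3. GemKD was higher each time, with a mean log2 ratio of 0.27 ± 0.13 (SD, n = 3), and a dimmer Klf4 probe set gave 0.17 ± 0.083. Klf5, which also acts in trophectoderm, read 2052 and 2662 in E1, 2295 and 2422 in E2, and 1455 and 1482 in E3. Its log2 ratios of 0.37, 0.08 and 0.03 show that E1 carried most of the mean of 0.16 ± 0.19. Klf2 read 2234 and 2467 in E1, 2657 and 2492 in E2, and 1048 and 1159 in E3. GemKD was therefore lower in E2 and higher in the others, with a mean of 0.06 ± 0.14, within the spread of the experiments.

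Zfp42 (Rex1), a zinc finger protein long used as a marker of the naive state, had the most even ratios. Its signal went from 3827 to 4392 in E1, from 4094 to 4838 in E2 and from 1745 to 1992 in E3. These are 114.8%, 118.2% and 114.2% of control, or a mean log2 ratio of 0.21 ± 0.027 (SD, n = 3). By unadjusted p it ranked 12 of 14188 genes in the block fit, and Nanog ranked 6. Tfcp2l1, a CP2-family factor, went from 169 to 213, from 236 to 265 and from 85 to 95.5, a mean log2 ratio of 0.20 ± 0.091. Tbx3, a T-box factor also made in early endoderm, went from 169 to 183, from 127 to 163 and from 101 to 115, a mean of 0.20 ± 0.11. For both genes all 3 GemKD arrays exceeded their own control.

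The orphan nuclear receptors Esrrb and Nr0b1 differed from each other. Nr0b1 (Dax1), which binds and restrains Oct4, read 860 and 942 in E1, 1238 and 1193 in E2, and 532 and 568 in E3, so GemKD was lower in E2 only and the mean log2 ratio was 0.06 ± 0.096. The brightest Esrrb probe set, 1441921_x_at, went from 423 to 537, from 467 to 483 and from 454 to 486, with a mean of 0.16 ± 0.15. A second one, 1436926_at, went from 235 to 353 in E1, from 326 to 415 in E2 and from 63.9 to 93.3 in E3, which is 0.45 ± 0.11. The third, 1422986_at, was dim (18.4 to 67.7) and gave 0.50 ± 0.044. All 3 were higher in GemKD in every experiment, and none passed when all 31526 probe sets above the filter were fitted (adjusted p = 1 each, and 0.976 to 0.992 with the block).

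Prdm14, a PR domain protein of naive and germ cells, was the 1 factor below its control in every experiment. It read 57.2 uninduced and 45.1 in GemKD in E1, 67.1 and 66.3 in E2, and 68 and 52.9 in E3. The mean log2 ratio was -0.19 ± 0.15 (SD, n = 3), and the signal was dim, at 59.4 over the 6 arrays against a filter limit of 19.5.

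**Figure D2:**
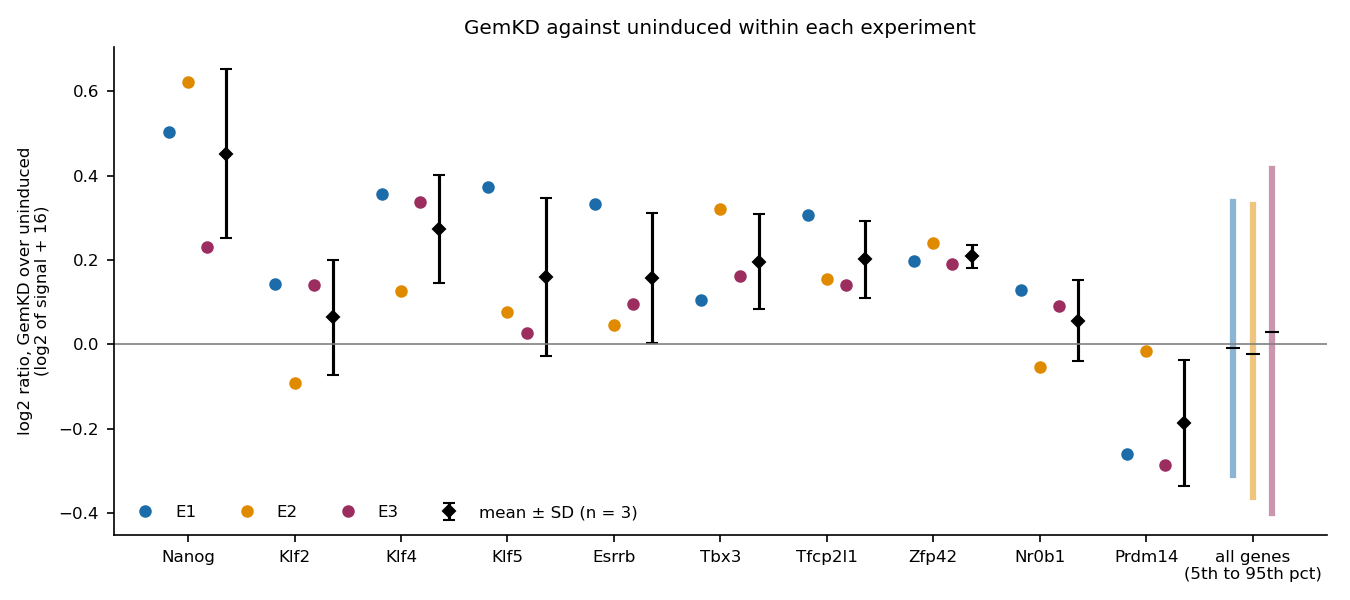
Log2 ratio of GemKD over uninduced in E1, E2 and E3 for each factor (coloured points), with the mean ± SD of the 3 experiments (black) and, at the right, the 5th to 95th percentile of all 14188 genes in each experiment with the median as a dash. Nanog stands highest at 0.45 ± 0.20, Zfp42 has the narrowest spread, and Prdm14 lies below 0 throughout.

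Whether the difference itself changed between E3 and the others was tested by an interaction in limma, fitted on all genes. Called were 0 of the 10 factors and 0.0141% of all genes, and at an unadjusted p under 0.05 1 of 10, Nanog, and 1530 genes. The Nanog ratio was lower in E3 by -0.33 (SE 0.11, adjusted p = 0.397). Without the uninduced array of E1 that value was -0.40 (adjusted p = 0.0269), a fit that leaves 1 residual degree of freedom. The other 9 had differences between -0.20 (Klf5) and 0.12 (Klf2), with adjusted p between 0.558 and 0.957, and the interval for Zfp42 ran from -0.26 to 0.20.

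The second comparison sets E3 beside E1 and E2, in both arms. Here the factors differed far more than between GemKD and uninduced. With the arm as a covariate, limma called 8 of the 10 lower in E3, where 22.6% of all genes tested were called lower and 12% higher. The same 8 had both E3 arrays below all 4 arrays of E1 and E2, as did 31% of all genes. The fitted difference was 2-fold or more downward for 5 of the 10, beside 1.71% of all genes. The median log2 difference was -1.03 over the 10 factors and -0.04 over all genes tested. E3 is a single experiment. Its p-values therefore measure the spread among these arrays, and what set E3 apart was not tested.

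Nanog again led. Its mean signal was 2032 in the 4 arrays of E1 and E2 and 315 in the 2 of E3, that is 15.5%, a log2 difference of -2.61 (SE 0.078, limma adjusted p = 4.30e-09). By size of decrease it ranked 11 of 14188 genes. Klf4 stood at 401 and 95.1, or 23.7% (-1.91, SE 0.10, adjusted p = 1.78e-07), and its dimmer probe set gave -1.70. Zfp42 fell to 43.6% (-1.19, SE 0.049), Klf2 to 44.8% (-1.15, SE 0.067) and Tfcp2l1 to 40.9% (-1.14, SE 0.14). Their adjusted p lay between 2.27e-08 and 8.56e-05. Nr0b1 fell to 52% (-0.91, SE 0.13, adjusted p = 2.08e-04) and Klf5 to 62.3% (-0.67, SE 0.066, adjusted p = 1.67e-05).

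Tbx3 was the least certain of the 8, at 67.2% (-0.50, SE 0.13, adjusted p = 0.00974). The call was lost without either E3 array (adjusted p = 0.0850 without GemKD, 0.0605 without uninduced), without E1 (0.0859), and with the mean of all Tbx3 probe sets (0.109). With that mean Klf5 (-0.17, adjusted p = 0.158) and Tfcp2l1 (-0.42, adjusted p = 0.0564) did not pass either, their other probe sets being dim or level.

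E1 and E3 carry the same hairpin, so they were also set side by side. Between them the log2 difference was -2.64 for Nanog, -1.84 for Klf4, -1.13 for Zfp42, -1.08 for Klf2, -0.96 for Tfcp2l1, -0.69 for Nr0b1, -0.66 for Klf5 and -0.63 for Tbx3. E2, with the other hairpin, differed from E1 by -0.07 for Nanog and 0.12 for Zfp42, and by more for Nr0b1 (0.43) and Tfcp2l1 (0.37). In the uninduced arrays alone the log2 difference of E3 from E1 and E2 was -2.44 for Nanog, -1.96 for Klf4 and -1.20 for Klf2. It was -1.17 for Zfp42, -1.10 for Tfcp2l1, -0.93 for Nr0b1, -0.57 for Klf5 and -0.48 for Tbx3. Tbx3 was not called in this fit, which holds 1 array of E3. The median was -1.02 over the 10 factors and -0.06 over all genes tested, so the gap was present without Dox.

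**Figure D3:**
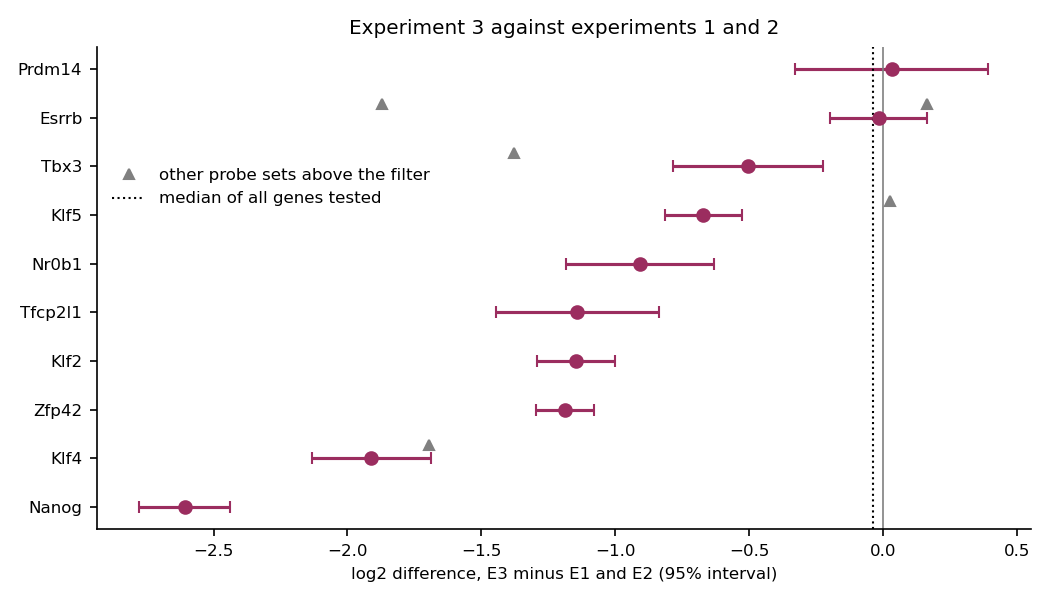
Log2 difference of E3 from E1 and E2 for each factor with its 95% interval from limma (purple), other probe sets of the same gene above the filter (grey triangles) and the median of all genes tested (dotted line). Nanog lies at -2.61, 7 further factors lie between -1.91 and -0.50, and Esrrb and Prdm14 lie near 0, with a second Esrrb probe set at -1.87.

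Esrrb and Prdm14 were not called (log2 -0.02 and 0.03, adjusted p = 0.901 and 0.903), and for Esrrb this rested on the probe set. The brightest, 1441921_x_at, averaged 478 in E1 and E2 and 470 in E3. The next, 1436926_at, averaged 332 and 78.6, or 23.7%, beside 23.7% for Klf4 (-1.87, SE 0.13, adjusted p = 4.91e-06 over all probe sets). The third, 1422986_at, averaged 40.6 and 45.1 (0.17, adjusted p = 0.669). An identifier ending in _x_at marks probes that may also bind other transcripts, and without such probe sets 9 of the 10 factors were called lower in E3. That choice was made after the values were seen. With the mean of all Esrrb probe sets, a planned setting, Esrrb was also called lower in E3 (-0.57, adjusted p = 0.00189). Klf5 showed the same kind of split, since 1451739_at read 148 to 159 on all 6 arrays (0.03) while 1451021_a_at fell. The dimmer Tbx3 probe set 1437479_x_at read 38.4 to 61.1 in E1 and E2 and 13.4 and 4.61 in E3. Both E3 values are under the filter limit of 19.5, which it passed through E1 and E2, so its log2 difference is not read as a size. Which probe set reports each transcript was not tested.

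**Figure D4:**
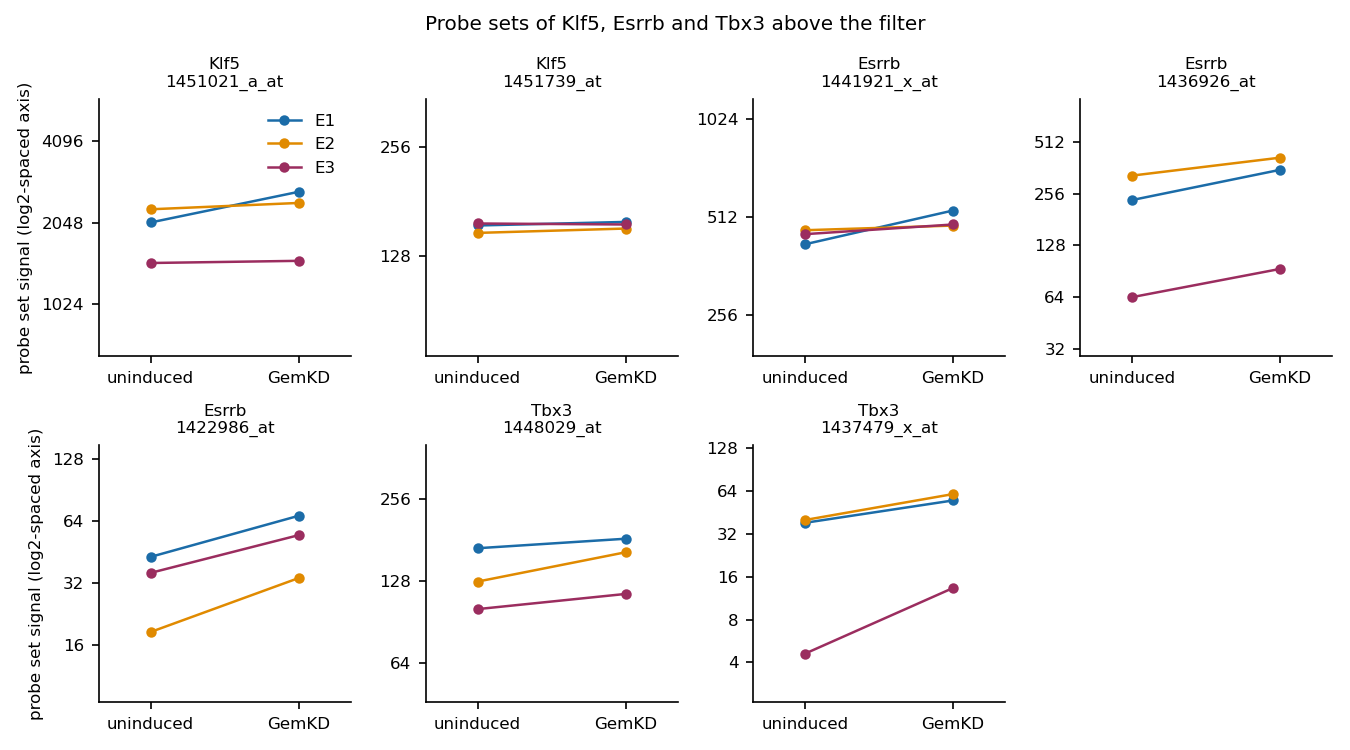
Signal of every probe set of Klf5, Esrrb and Tbx3 above the filter on the 6 arrays, on an axis spaced by log2, with lines as in the plot of all factors by array. For Esrrb the E3 line lies far below the others in 1436926_at only, and Klf5 1451739_at is level in all experiments.

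All factors but Esrrb and Prdm14 had a similar profile over the arrays. Pearson's r of each gene with the mean of the other 9 over the 6 arrays was between 0.825 (Tbx3) and 0.998 (Zfp42) for 8 of them, 0.21 for Esrrb and -0.14 for Prdm14. These values describe 3 experiments of 2 arrays and mostly the gap of E3. Of 1053 other genes with a range of at least 1 on the log2 scale, 25.5% had an r above 0.95 with the mean profile. The 5 most alike were Mfge8, Mgarp, Bicc1, Cobl and Phf11d, with r between 0.997 and 0.9995, and Mfge8 read 1272 to 1546 in E1 and E2 and 621 and 684 in E3. For Nanog alone they were Fstl1, Arsa and Aard (r 0.998 to 0.999).

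Most other genes listed for the naive state were lower in E3 too. Of 14 tested, 11 were called lower and 1 (Zscan10) higher, beside 22.6% and 12% of all genes, with a median log2 difference of -0.83. Dppa3 (Stella), a maternal and germ cell protein, averaged 182 and 75.1 (-1.04, adjusted p = 0.0105), and Fbxo15, a ubiquitin ligase subunit, 2567 and 1425 (-0.84, adjusted p = 4.08e-07). Fgf4, which drives exit from the naive state through ERK, averaged 1399 and 1670 (0.28, adjusted p = 0.0871). Between GemKD and uninduced 0 of the 14 passed with or without the block, 7 were higher in all 3 experiments and 1, Fgf4, lower (-0.21, -0.55 and -0.13). Over all genes tested 12.2% were higher in all 3 experiments and 11.7% lower.

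The LIF pathway, which feeds Klf4 and Tfcp2l1, had a median log2 difference of -0.66 in E3. It had 6 of 10 genes called lower and 0 higher, beside 22.6% and 12% of all genes. Its receptor subunits Lifr (1109 and 677, log2 -0.70, adjusted p = 3.05e-05) and Il6st (714 and 417, -0.76, adjusted p = 2.15e-05) were among them, and the ligand Lif was not (67.7 and 80.3, adjusted p = 0.362). In GemKD 0 of the 10 were higher in all 3 experiments and 2 were lower, beside 12.2% and 11.7% of all genes. For Wnt and GSK3 genes, 3 of 8 were called lower and 1 higher in E3, with a median of -0.08. The effector Ctnnb1 (-0.05, adjusted p = 0.267) and the kinases Gsk3a (-0.01, adjusted p = 0.940) and Gsk3b (-0.11, adjusted p = 0.189) were not called. The called genes were named after their values were seen. Lower were Porcn (450 and 68, log2 -2.465, adjusted p = 1.24e-07), Axin2 (-0.47, adjusted p = 0.023) and Lef1 (-0.17, adjusted p = 0.033). Tcf7l1, the repressor of Esrrb, was higher (2123 and 2705, log2 0.35, adjusted p = 0.00295).

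Core pluripotency genes had 4 of 10 called lower in E3 and 0 higher, beside 22.6% and 12% of all genes, with a median of -0.08. The lowest were Tdgf1, a Nodal co-receptor (-0.46, adjusted p = 3.69e-05), and the zinc finger gene Zfp281 (-0.34, adjusted p = 6.91e-05), both named after their values were seen. Pou5f1 (Oct4) averaged 7509 in E1 and E2 and 7370 in E3 (-0.03, adjusted p = 0.549), Sox2 5862 and 5183 (-0.18, adjusted p = 0.00282) and Sall4 4304 and 4012 (-0.10, adjusted p = 0.0548). The GemKD ratios of these 3 stayed between -0.04 and 0.08. Formative and primed epiblast genes ran the other way, with 8 of 13 called higher and 2 lower in E3 and a median of 0.19. The growth factor gene Fgf5 averaged 127 and 621 (2.17, adjusted p = 1.66e-06), and the homeobox factors Otx2 1458 and 2759 (0.93, adjusted p = 1.27e-04) and Pou3f1 3207 and 6191 (0.95, adjusted p = 9.61e-07). Of these 13 genes 8 also belong to another list. Factors known for exit from the naive state were split, 8 of 14 called lower and 5 higher (median -0.21), with Etv5 at 0.17 (adjusted p = 0.00763) and Etv4 at 0.90 (adjusted p = 1.35e-04).

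**Figure D5:**
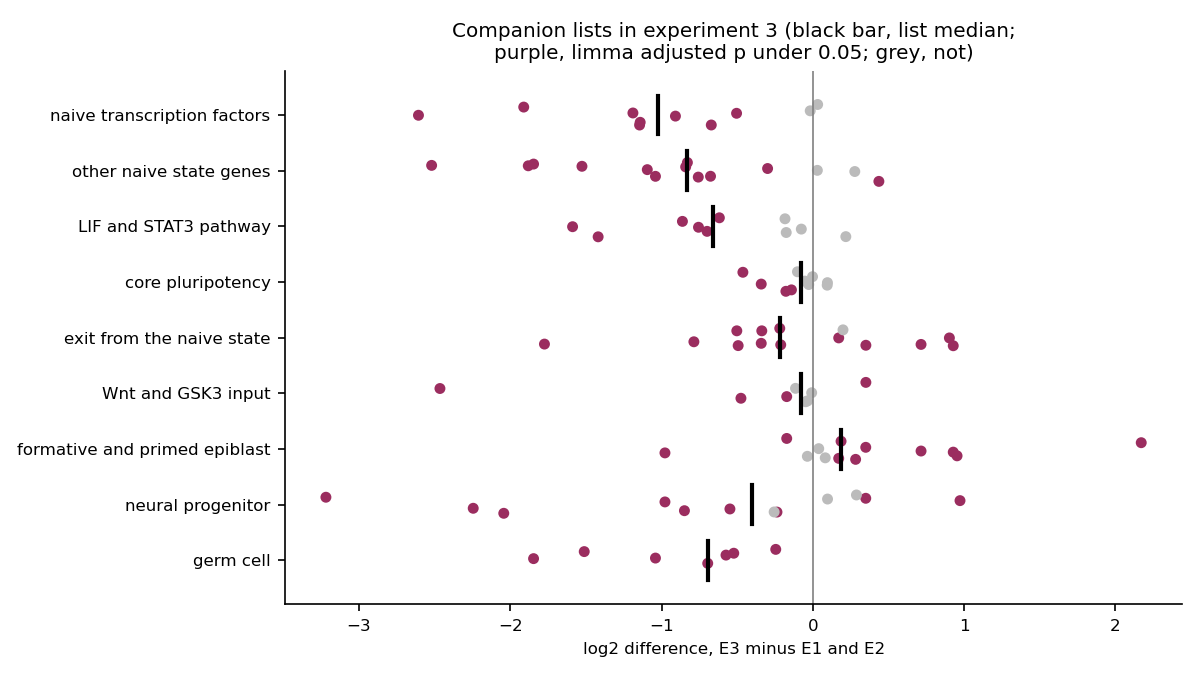
Log2 difference of E3 from E1 and E2 for each tested gene of the naive factors and 8 companion lists, with the list median as a black bar, purple for genes called by limma and grey for the rest. Medians are -1.03 for the naive factors, -0.83 for other naive genes and -0.66 for the LIF pathway, -0.08 for core pluripotency and 0.19 for formative and primed epiblast.

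Markers of some other cells also differed in E3, and their part in the result was not tested. Their counts stand beside the 22.6% of all genes called lower and the 12% called higher, a share that the primitive endoderm and mesoderm lists and the lower calls of the trophoblast list did not exceed. All 12 neural progenitor genes were above the filter, which is set on the mean of the arrays, 7 called lower and 2 higher in E3 (median -0.40). Among those called lower was Olig3, whose E3 signals, 6.4 in GemKD and 11.4 uninduced, are both under the filter limit. It passed the filter through E1 and E2, so its log2 difference is not read as a size. The summed signal of the 12 genes was 7843 to 9242 in E1 and E2 and 5105 to 5556 in E3. Sox1 (2318 and 550, -2.04, adjusted p = 6.22e-09) and Pax6 (757 and 146, -2.25, adjusted p = 7.03e-08) fell with Nanog, and Nes did not (255 and 274, adjusted p = 0.449). Of 10 fibroblast genes 8 were called lower and 1 higher (median -0.41, sums 8106 to 8660 and 5964 to 6159), among them Col1a1 (-0.46, adjusted p = 0.0133), Col1a2 (-1.08, adjusted p = 1.54e-06) and Col3a1 (-0.88, adjusted p = 1.59e-04). Primitive endoderm genes had 1 of 10 called each way (median -0.04, sums 4665 to 5640 and 5442 to 5553), and Gata6, Gata4 and Sox17 averaged 63.7, 56.5 and 78.6 in E1 and E2 and were not called. Trophoblast genes had 1 of 8 called lower and 3 higher (median 0.26, sums 1749 to 1939 and 1604 to 1668), with Cdx2 at 32.4 and 33.9 and Elf5 at 13.3 and 9.95, near or under the filter limit. The called genes were named after their values were seen. Higher were Krt18 (218 and 639, 1.49, adjusted p = 7.88e-07), Krt8 (0.62, adjusted p = 8.90e-04) and Ascl2 (0.54, adjusted p = 0.0304), and Tfap2c was lower (-1.85, adjusted p = 5.61e-07). Mesoderm genes had 0 of 6 called (median -0.08, sums 766 to 893 and 740 to 789), with Mixl1 at 12.7 and 13.1, below the limit, and Mesp1 at 348 and 302.5. Eomes, which belongs to both of these lists, averaged 308 and 252 (adjusted p = 0.0853). Housekeeping genes had 0 of 3 called (Actb averaged 13534 and 13367, median -0.02). Between GemKD and uninduced 0 genes of the companion lists were called, with or without the block. In bulk RNA fewer cells of a kind and less RNA per cell cannot be told apart.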

How the data were processed

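Affymetrix Mouse Genome 430 2.0 arrays were hybridised with biotin-labelled total RNA, per the labels' protocols, 1 array per sample. The deposited values are taken as probe set intensity on a linear scale, which is read from the values themselves. The medians of the arrays are near-equal (59.3 to 60.9), and how they came to be so is not stated. Their software, background correction and normalization: not given in the sources used here. Of an array's values 1.58% to 1.69% are exactly 1. The deposited intensity was used as log2(signal + 16), which understates the change of low genes. Of the probe sets, 34945 had 1 gene symbol, 932 several and 9160 none in GEO's platform annotation; all 21 of the factors matched RefSeq (GRCm38.p6) by Entrez identifier. Probe sets with a mean above the 30th percentile (a signal of 19.5) were kept, and the brightest stood for its gene. The number of arrays limits the precision.

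GemKD was compared with uninduced in limma 3.58.1 (R 4.3.3; lmFit, eBayes with an intensity trend, Benjamini-Hochberg over all genes, threshold 0.05), 3 arrays against 3, without a block; an alternative fit added a block term for the experiment. The shared number marks 1 experiment, per the labels. Same-numbered arrays deviated together from their group means (r = 0.487, 0.474 and 0.716), which the gap of E3 alone can produce. These values therefore do not test the pairing. By SD of the log2 difference the GemKD arrays of E1 and E2 lay closer together (0.090) than the arms of E1 (0.125) or E2 (0.148). E3 was compared with E1 and E2 with the arm as a covariate. An exact permutation of single values could not go below p = 0.1 for 3 against 3, or 0.0667 for 2 against 4. The code was tested on simulated data.

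The members and lists were chosen with earlier results of these data known. Named are the 10 factors, Gmnn, the first 3 genes of each list, list genes called in the GemKD comparison, and the genes most alike in profile. Zscan10, Tdgf1, Zfp281, Tcf7l1 beside the Wnt genes and further list genes were named after their values were seen.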

Additional observations from a re-analysis of the deposited data

Results flagged for a closer look

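Among 18 genes looked at, 5 had a GemKD ratio whose sign in E3 alone, or in E2 (hairpin 9) alone, was opposite to both other experiments. A split of E1 from the others was not flagged, and Pou5f1 had such a split (0.01, -0.04 and -0.01 in E1, E2 and E3). Mixed directions of any kind were found for 76.1% of all genes tested, a wider rule than the one used for the 18. The Klf2 ratio was negative under hairpin 9 and positive in both experiments with hairpin 11, a difference of -0.23 (SE 0.134, limma adjusted p = 1). The Nr0b1 ratio split the same way (-0.16, adjusted p = 1), as did Sox2 (-0.075, adjusted p = 1). Pou3f1 was lower in GemKD in E1 and E2 (-0.20 and -0.39) and level in E3 (0.02), a difference of 0.31 (adjusted p = 0.393). Olig3, a neural progenitor factor, was higher in GemKD in E1 and E2 (0.96 and 0.87) and lower in E3 (-0.29), a fitted difference of -1.20 (unadjusted p = 7.70e-04, adjusted p = 0.383). Its E3 signals, 6.4 in GemKD and 11.4 uninduced, are both under the filter limit of 19.5, which Olig3 passed through E1 and E2, so neither the E3 direction nor the size of the difference can be read from them. None of the 5 differences passed the adjustment. Pou3f1 and Olig3 were among the 18 because they were called in E1 and E2 alone, a choice that favours a difference from E3.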

How the results depend on the processing

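For GemKD against uninduced, 1 gene was called, 0 without the intensity trend, 5 with the replicate block, 0 to 1 with 1 array left out and 0 to 3 with 1 experiment left out. With the block and 1 experiment left out, chosen after seeing the data, 68, 26 and 29 were called without E1, E2 and E3. Factors called were 0, and 1 (Nanog) without E3, with or without the block, and with the block without E1. The replicate block changed no other call of a factor. With 1 array left out the groups no longer balance, and the ratio changed sign: Nanog -0.36 to 1.38, Klf2 -0.34 to 0.43, Klf4 -0.38 to 0.90, Klf5 -0.031 to 0.42, Nr0b1 -0.26 to 0.35, Tfcp2l1 -0.16 to 0.60 and Zfp42 -0.18 to 0.61. Klf5 was -4.19e-04 with the mean of all its probe sets, and with that mean 5 factors rather than 7 were higher in all 3 experiments.

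For E3, 4905 of 14188 genes were called, 8746 of 31526 probe sets when all were fitted, 2208 genes in the uninduced arrays alone, 3491 to 4860 with 1 array left out and 3972 to 4092 without E1 or E2. Factors called lower were 8, 6 with the mean of all probe sets, 9 with all probe sets or without _x_at, 7 in the uninduced arrays alone, and 7 to 8 with arrays or experiments left out. Esrrb, not called in the main fit, was among the 6 called with the mean of all probe sets (-0.57, adjusted p = 0.00189). It was -1.87 without _x_at, 0.057 with quantile normalization, 0.030 in the uninduced arrays alone and -0.064 to 0.030 with 1 array left out. Prdm14 was -0.049 to 0.13 with 1 array left out and -0.12 to 0.19 without E1 or E2. For the interaction, 2 genes were called, 1 with no filter, the 50th percentile filter, the mean of probe sets, a pseudocount of 1 or without _x_at, 0 with no trend, and 2 to 564 with 1 array left out (564 without the uninduced array of E1, 376 without that of E2). Factors called there were 0 to 1. The interaction without an E3 array or a whole experiment, and E3 without its own arrays, could not be fitted. Each cause was not tested.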

Other observations

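Germ cell genes, several of which share regulation with naive cells, were called lower in E3 in 7 of 7 tested, beside 22.6% of all genes. Their median log2 difference was -0.69, with sums of 4995 to 5367 in E1 and E2 and 2914 to 3178 in E3. Prdm1, a repressor that starts the germ line, averaged 64.8 and 39.7 (-0.52, adjusted p = 0.0282), and Ddx4, an RNA helicase, 1413 and 1190 (-0.24, adjusted p = 0.0252). Of these 7 genes 2 belong to other lists. Between GemKD and uninduced 4 of the 7 were higher in all 3 experiments, as were 12.2% of all genes. Of the 7, 0 were called, with or without the block.

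DNA methylation factors were split in E3, 3 of 7 called lower and 2 higher (median -0.11), beside 22.6% and 12% of all genes. The methyltransferases Dnmt3a (2910 and 3535, 0.28, adjusted p = 0.00186) and Dnmt3b (9616 and 10946, 0.19, adjusted p = 0.00121) rose, and their cofactor Dnmt3l fell from 4390 to 1761 (-1.31, adjusted p = 4.52e-09). Of the two-cell-like genes 1 was tested, Zfp352, at 122 and 108, and 0 were called.

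In E1 and E2 alone with the block, the list genes called between GemKD and uninduced were Olig3 (0.92 higher, limma adjusted p = 7.12e-04) and Pou3f1 (-0.30, adjusted p = 0.034).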
